A study of Mus musculus with 6 samples.

Results

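Non-canonical miRNAs are small regulatory RNAs whose precursors do not depend on Microprocessor, the nuclear complex of Drosha and Dgcr8. Of the 1907 mature mouse miRNAs listed in the count table, 9 were examined here, chosen by name from textbook knowledge of this class. The rule did not use their measured values, although earlier results of these data were known when they were chosen. They come from 7 hairpins and are mmu-miR-1981-5p, mmu-miR-1981-3p, mmu-miR-877-5p, mmu-miR-877-3p, mmu-miR-1224-5p and mmu-miR-702-3p, which are mirtrons, mmu-miR-320-3p and mmu-miR-484, whose precursors carry a cap, and mmu-miR-1839-5p, which lies in a small nucleolar RNA.

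A canonical miRNA is cut from a long primary transcript by Microprocessor and then by Dicer, which leaves the mature strand that is loaded into an Argonaute protein. A mirtron is a short intron that, once spliced out and debranched, folds into a hairpin that Dicer can use directly, so its ends are set by the splice sites. The miR-320 precursor is a short capped transcript whose end is the transcription start itself, and small nucleolar RNAs, which normally guide the modification of other RNAs, are the source of a further group of Dicer products. In mouse embryonic stem cells (ESCs) such miRNAs are known as the class that persists when Dgcr8 is removed.

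Small RNA sequencing was performed in mouse ESCs of the C57BL/6 strain kept in serum, 2i or R2i, with the RB18 and RB20 lines in each medium, giving 6 libraries, 2 for each medium. The serum medium contained fetal bovine serum at 15%, whereas 2i and R2i were serum-free N2B27 media. 2i held 1 μM PD0325901, a MEK inhibitor, and 3 μM CHIR99021, a GSK3 inhibitor, whereas R2i held 1 μM PD0325901 and 10 μM SB431542, an inhibitor of TGF-β receptors. All media held 1000 U/ml LIF, the cells were wild type and grew without feeders on gelatin, every line had first been derived in R2i, the cells had been passaged over 10 times, and each library was made from a pool of 3 cultures. The comparison of media asks how miRNAs differ between ground-state cells (2i and R2i) and serum cells.

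The libraries held 1041858 to 3593356 counts assigned to miRNAs, and RB18 had the smaller library in each medium. Levels are given as normalized CPM, counts scaled to a common library size with the TMM factors of edgeR. A count of 3, taken as the floor, corresponded to 0.835 to 2.88 CPM before that scaling. Of the listed miRNAs, 571 passed the filter on low counts and were tested, among them 8 of the 9 members. ESC markers were present as labeled: all 9 miRNAs of the miR-290 and miR-302 clusters on the marker list were detected in every library and made up 24.1% to 36% of counts. Markers of muscle, neural, liver, blood, endothelial and mesenchymal cells made up 0.262% to 0.418%. Their summed level was 2614 and 2907 normalized CPM with serum, 4176 and 4185 with 2i, and 2862 and 2997 with R2i (RB18, then RB20). Of these 9 markers, miR-1a-3p was at 0 in both 2i libraries and miR-122-5p was at 0 in R2i RB18. The sum of these markers was thus highest in 2i, the medium in which some members were also highest, although miR-1a-3p was at 0 there. The part of these markers in the results was not tested. In bulk RNA, fewer cells of a type and less RNA per cell cannot be told apart.

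The sequences of 8 of the 9 members were found in RefSeq (GRCm38). They are shown because the outer ends of mirtron arms lie at or near splice sites, and are written 5′ to 3′ with the seed, bases 2 to 8 that pair with targets, in capitals.
miR-1981-5p: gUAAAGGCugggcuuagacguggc
miR-1981-3p: cAUCUAACccuggccuuugac
miR-877-5p: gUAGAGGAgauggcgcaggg
miR-877-3p: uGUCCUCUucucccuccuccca
miR-1224-5p: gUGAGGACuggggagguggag
miR-702-3p: uGCCCACCcuuuaccccgcucc
miR-484: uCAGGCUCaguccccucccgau
miR-1839-5p: aAGGUAGAuagaacaggucuug
None of these 8 members shared its seed with another listed miRNA for which a sequence was available, and miR-320-3p, without a sequence, was not compared. The 3 intronic 5p members all open with GU, the bases of a 5′ splice site. The 24 last bases of their introns, with the AG of the 3′ splice site in capitals, are shown because they hold the ends of the 3p arms.
Marc2 intron (miR-1981): ccaucuaacccuggccuuugacAG
Abcf1 intron (miR-877): guguccucuucucccuccucccAG
Vwa5b2 intron (miR-1224): uccccccaccucuucucuccucAG

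The annotated hairpin of miR-1981 (chr1:184822407-184822488, minus strand, GRCm38) was the whole of an 82-base intron of Marc2, which encodes a mitochondrial molybdenum enzyme. miR-877 (chr17:35960730-35960814, minus strand) filled an 85-base intron of Abcf1, which encodes an ATP-binding protein of translation, and miR-1224 (chr16:20604452-20604536, plus strand) filled an 85-base intron of Vwa5b2. The 109-base hairpin of miR-702 (chr5:136991433-136991541, plus strand) began 9 bases ahead of a 102-base intron of Plod3, a collagen lysyl hydroxylase gene, and ended 2 bases short of its end. All 4 of the 5p arms at these introns began at the first intronic base, as the map of mature arms inside the introns shows. The 3p arms ended close to the other splice site, miR-1224-3p at the last intronic base, miR-877-3p 1 base before it, and miR-1981-3p and miR-702-3p 2 bases before it. Pyrimidines, which are common just ahead of a 3′ splice site, made up 90.9% of miR-877-3p, 81.8% of miR-702-3p and 66.7% of miR-1981-3p, against a median of 59.1% over all 682 3p miRNAs with a sequence.

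**Figure D1:**
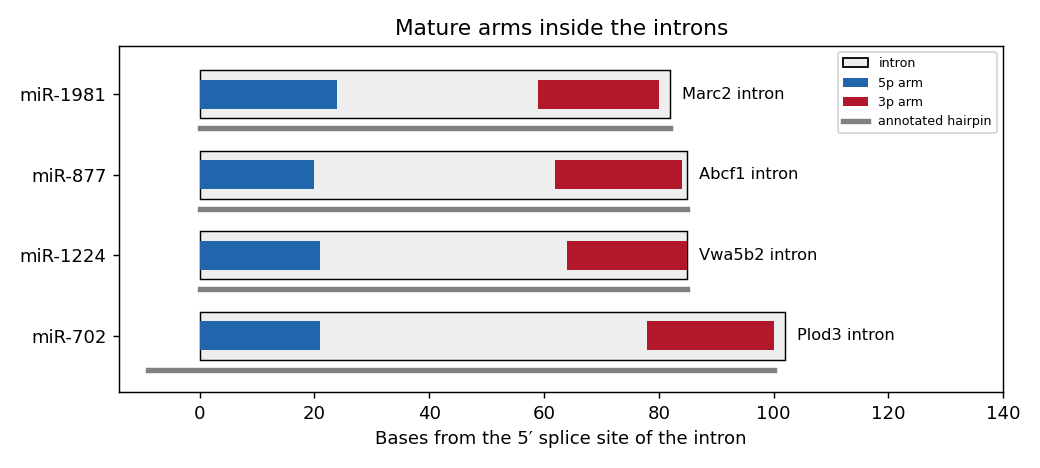
Position of the mature arms inside the 4 introns, in bases from the 5′ splice site; outlined boxes are introns, blue and red boxes are 5p and 3p arms, and grey lines are the annotated hairpins. All 4 of the 5p arms start at the splice site, the 3p arms end 0 to 2 bases before the intron's end, and only the hairpin of miR-702 starts ahead of its intron.

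The other 3 hairpins lie differently. miR-320 (chr14:70443510-70443591, plus strand) was in no exon or intron of its own strand and began 63 bases from a transcription start of Polr3d, a gene for an RNA polymerase III subunit on the opposite strand. miR-484 (chr16:14159626-14159692, plus strand) overlapped an exon of Marf1 on the opposite strand and lay 3649 bases ahead of the nearest start on its own strand, that of Nde1, a regulator of dynein. miR-1839 (chr7:81529916-81529988, plus strand) shared 66 of its 73 bases with a 127-base small Cajal body RNA, a nucleolar-type guide RNA, within the non-coding gene 2900076A07Rik. Its mature 5p strand holds AGGUAG at bases 2 to 7, and the same letters were found within bases 2 to 8 of 14 of 1623 mature sequences (0.86%), let-7a-5p among them, where they begin at base 3. The letters of the seeds therefore differ by a shift of 1 base.

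The 9 members together took 0.189% and 0.139% of counts with serum, 0.219% and 0.195% with 2i, and 0.170% and 0.172% with R2i (RB18, then RB20). Most of this was miR-320-3p and miR-484, which summed to 0.120% to 0.178% of counts. The other 7 members summed to 0.0244% and 0.0189% with serum, 0.0411% and 0.0514% with 2i, and 0.0241% and 0.0261% with R2i, so that both 2i libraries were above the other 4. Taken singly, only the miR-1981 arms and miR-1839-5p among these 7 had both 2i libraries above the other 4 in normalized CPM. By mean level over the 6 libraries, miR-484 ranked 78 of the listed miRNAs, miR-320-3p 112, miR-1839-5p 210, miR-1981-5p 258, miR-877-5p 294, miR-1981-3p 339, miR-877-3p 377, miR-702-3p 473 and miR-1224-5p 779. The levels of miR-484, miR-320-3p and miR-1224-5p did not overlap with those of their neighbors in that order over the 6 libraries, while the 6 members between them each overlapped with the next.

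**Figure D2:**
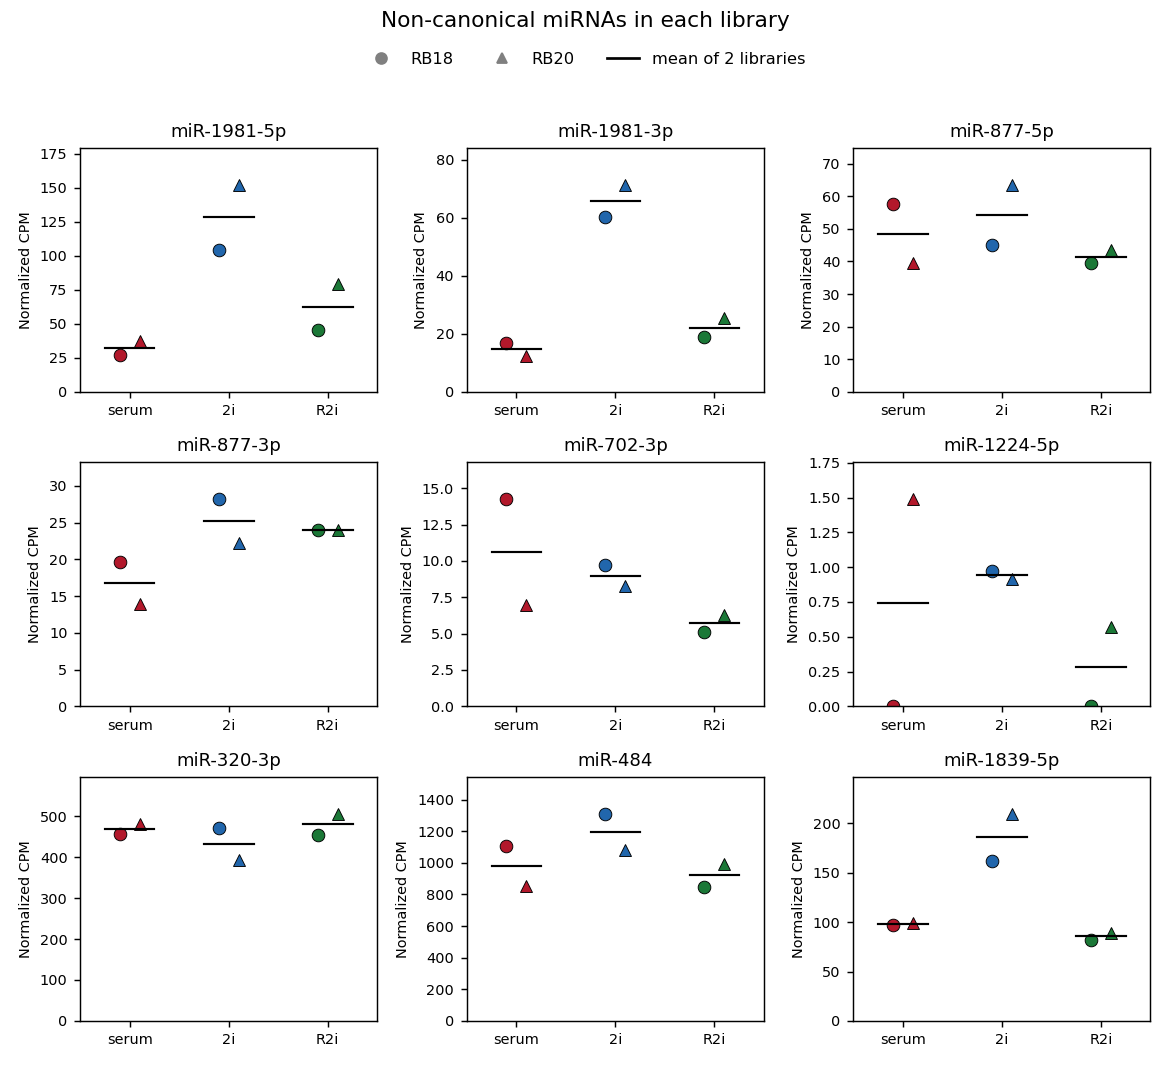
Normalized CPM of each member in each library, with 1 panel per miRNA and a linear axis from 0; circles are RB18, triangles RB20, and bars the mean of 2 libraries. Both miR-1981 arms and miR-1839-5p have both 2i libraries above the other 4, miR-320-3p is nearly level, and miR-1224-5p is at or under the floor.

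Among the mirtrons, both arms of miR-1981 rose in 2i. miR-1981-5p measured 27.4 and 37.2 normalized CPM with serum, 104.4 and 152.3 with 2i, and 45.4 and 79.2 with R2i (RB18, then RB20), from raw counts of 50 and 75, 215 and 499, and 53 and 277. Every 2i library was above every R2i library, and every R2i library was above both serum libraries. The difference between 2i and serum was 1.99 on the log2 scale (SE 0.36), or 3.98-fold, with an adjusted p of 0.00237 (edgeR quasi-likelihood test, Benjamini-Hochberg over all 571 tested). A miRNA was called where the adjusted p was under 0.01 and the change over 2-fold, and miR-1981-5p passed. In R2i against serum it differed by 0.97 (SE 0.36, adjusted p of 0.062 by edgeR), and in 2i against R2i by 1.02 (SE 0.34, adjusted p of 0.185), neither of which was called.

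The partner arm, miR-1981-3p, measured 17.0 and 12.4 normalized CPM with serum, 60.2 and 71.4 with 2i, and 18.9 and 25.4 with R2i. The 2i libraries lay far above the rest, while the R2i libraries lay just above those in serum. The rise in 2i against serum was 2.17 (SE 0.29), or 4.49-fold (adjusted p of 0.0005 by edgeR). R2i against serum gave 0.63 (SE 0.30, adjusted p of 0.135), and 2i against R2i gave 1.54 (SE 0.28, adjusted p of 0.0714), so the step between 2i and R2i missed the threshold although its unadjusted rank was 4 of 571 in that comparison. With the mean of 2i and R2i set against serum, both arms were called, miR-1981-5p at 1.48 (adjusted p of 0.00572) and miR-1981-3p at 1.40 (adjusted p of 0.00296). The 2 arms come from 1 hairpin and are not independent observations.

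Within each line the direction was the same. miR-1981-5p was higher in 2i than in serum by 1.89 in RB18 and 2.01 in RB20 on the log2(normalized CPM + 1) scale, and miR-1981-3p by 1.77 and 2.44. In R2i the differences were 0.71 and 1.07 for the 5p arm and 0.14 and 0.98 for the 3p arm. The 2i call of miR-1981-5p was lost without 2i RB20 (1.71, adjusted p of 0.0135 by edgeR) and without serum RB18 (1.90, adjusted p of 0.0139), whereas that of miR-1981-3p was kept when each library was left out in turn. The ground-state calls rested on more libraries: that of miR-1981-3p was lost without R2i RB20 (1.28), 2i RB20 (1.36) or serum RB20 (1.13), and that of miR-1981-5p without R2i RB20 (1.25), 2i RB20 (1.35), serum RB18 (1.39) or serum RB20 (1.67). The Marc2 mRNA was not measured by these libraries.

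The other mirtrons were not called in any comparison. miR-877-5p measured 57.5 and 39.6 normalized CPM with serum, 45.2 and 63.5 with 2i, and 39.4 and 43.5 with R2i, and the serum libraries overlapped with both other media. Its log2 difference was 0.17 (SE 0.28) in 2i and −0.22 (SE 0.29) in R2i against serum, with adjusted p of 0.648 and 0.588 by edgeR. The opposite arm, miR-877-3p, measured 19.7 and 13.9 with serum, 28.2 and 22.3 with 2i, and 24.01 and 24.02 with R2i. Its 2i and R2i libraries lay above both serum libraries, with differences of 0.58 (SE 0.30) and 0.52 (SE 0.31) and adjusted p of 0.14 and 0.217 by edgeR.

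miR-702-3p, from the Plod3 intron, was low throughout, with counts of 26 and 14 with serum, 20 and 27 with 2i, and 6 and 22 with R2i. These gave 14.2 and 6.94 normalized CPM with serum, 9.71 and 8.24 with 2i, and 5.14 and 6.29 with R2i, so the R2i libraries were lowest and the serum libraries spanned the 2i values. Its log2 difference was −0.24 (SE 0.45, adjusted p of 0.692 by edgeR) in 2i and −0.83 (SE 0.48, adjusted p of 0.208) in R2i. miR-1224-5p had 0 and 3 counts with serum, 2 and 3 with 2i, and 0 and 2 with R2i. All 6 values were at or under the floor of 3 counts, so no fold is given, and a difference was not detectable at this depth.

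The members with a capped precursor were the most abundant and varied little. miR-484 measured 1109 and 852.3 normalized CPM with serum, 1310 and 1083 with 2i, and 848 and 993.9 with R2i, and the serum libraries overlapped with both other media. Its log2 difference was 0.29 (SE 0.25, adjusted p of 0.374 by edgeR) in 2i and −0.09 (SE 0.25, adjusted p of 0.817) in R2i. miR-320-3p measured 458.1 and 482.6 with serum, 471.7 and 394.3 with 2i, and 455.3 and 506.4 with R2i, again with all media overlapping. It differed from serum by −0.12 (SE 0.23, adjusted p of 0.694 by edgeR) in 2i and by 0.03 (SE 0.23, adjusted p of 0.914) in R2i.

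Over the 6 libraries, miR-320-3p spanned 0.36 on the log2(normalized CPM + 1) scale from lowest to highest, which ranked 7 from the narrowest of 571, where the median span was 1.78. The spans were 0.63 for miR-484, 0.67 for miR-877-5p and 0.97 for miR-877-3p. They reached 1.31 for miR-702-3p, 1.34 for miR-1839-5p, 2.43 for miR-1981-5p and 2.44 for miR-1981-3p. The narrow members thus included both abundant ones, and counting error is smaller at a higher count. The tested miRNAs whose profile was most like that of miR-484 were miR-145a-3p (Pearson r of 0.918), miR-132-5p (0.906) and miR-182-3p (0.849). They were picked as the highest r over only 6 libraries, which differ in depth and medium, and serve as a description.

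miR-1839-5p, from the small Cajal body RNA, stood higher in 2i without passing the limits. It measured 96.9 and 99.1 normalized CPM with serum, 162.2 and 209.7 with 2i, and 82.3 and 88.9 with R2i. Both 2i libraries were above all others, and both R2i libraries were below serum. The log2 difference was 0.93 (SE 0.24, adjusted p of 0.0145 by edgeR) in 2i against serum, −0.19 (SE 0.24, adjusted p of 0.574) in R2i against serum, and 1.12 (SE 0.24, adjusted p of 0.0742) in 2i against R2i. With at least 10 counts demanded in every library, the 2i difference of 1.01 was called (adjusted p of 0.00811 by edgeR). This was the only 1 of 13 alternatives with the same limits in which it was called, and the differences ran from 0.75 to 1.13.

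The opposite strand of this hairpin, miR-1839-3p, was not among the members and measured 14.2 and 14.9 normalized CPM with serum, 35.9 and 43.3 with 2i, and 10.3 and 16.0 with R2i. It rose in 2i by 1.45 (SE 0.30, adjusted p of 0.00511 by edgeR) and differed by −0.08 in R2i (SE 0.32, adjusted p of 0.872). The 2i call was lost when 2i RB18 (1.61), 2i RB20 (1.33), serum RB18 (1.52) or serum RB20 (1.43) was left out. Both strands therefore had their highest values in the 2i libraries.

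**Figure D3:**
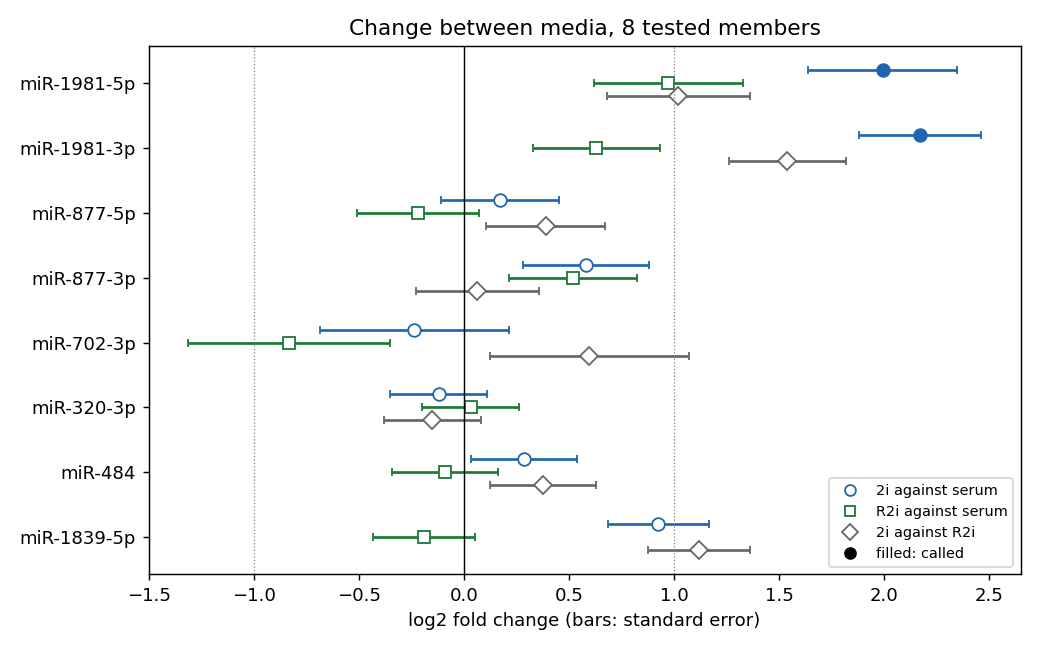
Log2 fold change of the 8 tested members in 2i against serum (circles), R2i against serum (squares) and 2i against R2i (diamonds); bars are standard errors, dotted lines mark a 2-fold change and filled symbols passed both limits. Only the 2 arms of miR-1981 in 2i against serum are filled, at 1.99 and 2.17, and miR-1839-5p lies near 1 in 2i but at −0.19 in R2i.

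Counted together, 2 of 8 tested members rose in 2i against serum and 0 fell, where 16.8% of all tested miRNAs rose and 17.3% fell. The 2 that rose were the arms of 1 hairpin, miR-1981, so no excess for the class is read from them. The median log2 difference was 0.43 over the members, with both arms of miR-1981 and of miR-877 counted, and −0.03 over all tested miRNAs. In R2i against serum 0 of 8 members were called by edgeR, where 30.6% of all tested miRNAs were called in either direction, and 1 member had an unadjusted p under 0.05, as did 283 of all 571. The medians were −0.03 and −0.07. In 2i against R2i 0 members were called by edgeR, where 0.350% of all tested miRNAs were, and 3 members had an unadjusted p under 0.05, as did 104 of all 571. DESeq2 and limma also called 0 members in those comparisons. In ground state against serum the same 2 arms of miR-1981 rose, where 17.0% of all tested miRNAs did. The comparisons with serum share the same serum libraries, and those with 2i share the same 2i libraries, so they are not independent.

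The share of the 5p arm in each hairpin does not depend on how a library is scaled. For miR-1981 the 5p arm made up 61.7% and 75.0% of counts with serum, 63.4% and 68.1% with 2i, and 70.7% and 75.7% with R2i, so both R2i libraries lay above both 2i libraries and the serum libraries overlapped with each. For miR-877 it made up 74.5% and 74.1% with serum, 61.6% and 74.0% with 2i, and 62.2% and 64.4% with R2i. The 5p arm thus prevailed in both of these mirtrons in every library.

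miR-702 went the other way, with a 5p share of 18.8% to 35.7%, and miR-320 was almost wholly 3p, with a 5p share of 0.103% to 0.933%. For miR-1839 the 5p share was 87.2% and 87.0% with serum, 81.9% and 82.9% with 2i, and 88.9% and 84.7% with R2i, so both 2i libraries lay below the other 4. The 95% Wilson intervals were 81.9% to 91.1% and 82.0% to 90.7% in serum and 77.8% to 85.3% and 80.2% to 85.3% in 2i, and they overlapped. These intervals, like the floors, cover counting error only, since reads were counted without molecular identifiers. No test was run on the shares, which are given as a description.

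**Figure D4:**
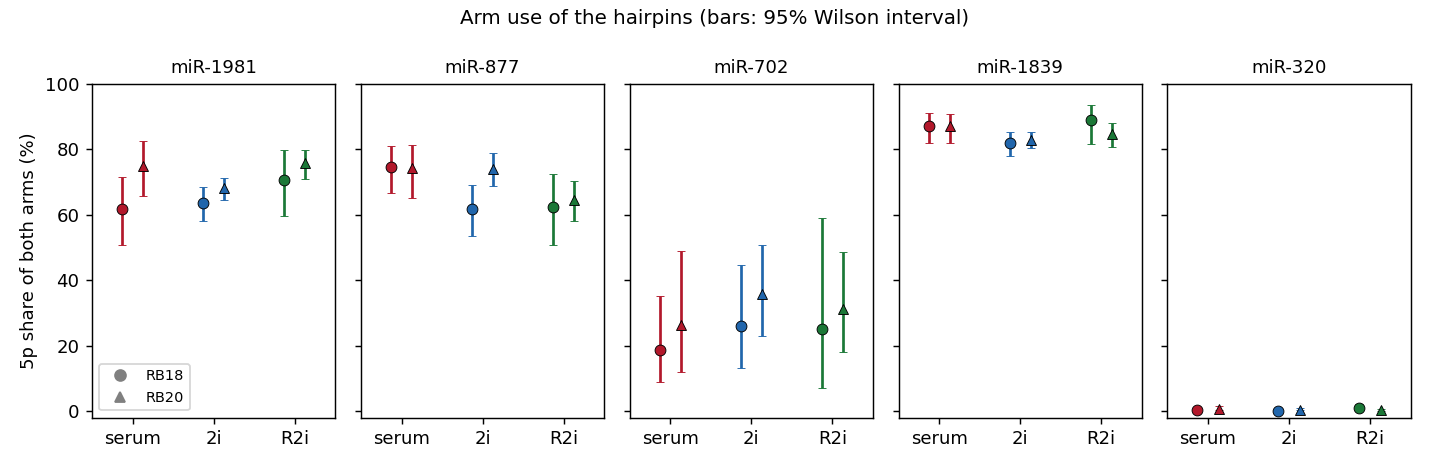
Share of the 5p arm in the counts of both arms for 5 hairpins, in percent, by medium; circles are RB18, triangles RB20, and bars the 95% Wilson interval of each library. miR-1981, miR-877 and miR-1839 are mostly 5p, miR-702 is mostly 3p with wide intervals, and miR-320 is below 1% 5p in every library.

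Other miRNAs of like origin were collected from the annotation. Hairpins with both ends within 15 bases of the ends of an intron on the same strand gave 82 mature miRNAs from 40 hairpins, of which 55 had a count and 10 were tested. Of these 10, 2 rose in 2i (the miR-1981 arms) and 1 fell, where 96 of all 571 tested miRNAs rose and 99 fell. In R2i 0 of the 10 rose and 1 fell, where 86 of all 571 rose and 89 fell. The median log2 difference of the 10 was 0.74 in 2i and 0.49 in R2i, against −0.03 and −0.07 over all 571. Of the 36 5p sequences on this list, 52.78% open with GU, against 2.84% of the 633 other 5p sequences. The list was drawn by intron ends, and an arm that starts at the first intronic base opens with the bases of the 5′ splice site. This contrast is thus partly set by the rule.

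Leaving out the members, 5 were tested, and those with the highest mean level were miR-7068-3p, miR-3102-3p and miR-6944-3p. The mirtron that fell was miR-6944-3p, from an intron of Dbn1, which encodes an actin-binding protein. It measured 73.9 and 65.4 normalized CPM with serum, 6.32 and 6.10 with 2i, and 12.9 and 4.29 with R2i, and all serum libraries were far above the others. The difference was −3.48 (SE 0.44, adjusted p of 0.00037 by edgeR) in 2i and −3.24 (SE 0.45, adjusted p of 0.00077) in R2i. The tested mirtrons therefore did not all move in 1 direction: the miR-1981 arms rose in 2i, and miR-6944-3p fell in 2i and R2i. miR-7068-3p, from an intron of the splicing-related gene Cherp, differed from serum by 0.90 (SE 0.37, adjusted p of 0.076 by edgeR) in 2i and 0.91 (SE 0.38, adjusted p of 0.0902) in R2i. It measured 29.01 and 45.59 normalized CPM with serum, 84.52 and 55.55 with 2i, and 90.03 and 52.9 with R2i (RB18, then RB20). The differences from serum were thus larger in RB18 than in RB20.

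Hairpins that share at least 50% of their length with a nucleolar RNA gene on the same strand gave 23 mature miRNAs, all with a count, of which 13 were tested. In 2i, 1 of these rose (miR-1839-3p) and 0 fell, where 96 of all 571 rose and 99 fell. In R2i 0 were called by edgeR, where 30.6% of all 571 were, and 3 had an unadjusted p under 0.05, as did 283 of all 571. Their median log2 difference was −0.12 in 2i and −0.08 in R2i, against −0.03 and −0.07 over all 571. The most abundant, miR-3535, miR-677-5p and miR-3068-3p, differed from serum by −0.28, 0.365 and 0.305 in 2i and by 0.99, 1.21 and 0.18 in R2i, and none was called. miR-1983, a tRNA-derived miRNA on the list of textbook names, was abundant, at 355.2 and 219.0 normalized CPM with serum, 610.6 and 696.5 with 2i, and 349.0 and 399.4 with R2i. Its difference was 1.19 (SE 0.29, adjusted p of 0.0112 by edgeR) in 2i, just short of the limit, and 0.38 (SE 0.29, adjusted p of 0.335) in R2i. Of the 8 miRNAs under the textbook names, 4 were tested and 0 were called in any comparison by edgeR with all 6 libraries and the filter on low counts. In 2i against serum, 1 of the 4 had an unadjusted p under 0.05, as did 329 of all 571. miR-1983 was called in 2i in 3 of 13 alternatives with the same limits, among them DESeq2 (1.201) and edgeR with no filter (1.24). Its differences over these 13 ran from 0.82, when serum RB20 was left out, to 1.68, when serum RB18 was left out.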

How the data were processed

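Small RNA libraries of 2 ESC lines in 3 media were sequenced by the authors. Per the labels, their processing used FastQC 0.11.5, cutadapt 1.3, Bowtie 1.1.2 and featureCounts 1.5 with mm10. The deposited table holds raw counts per mature miRNA, and a second deposited table holds log2 values, found from the numbers to be log2(count divided by a size factor, plus 1). Mature names shared by several loci may split or share reads, and the counting rule for them is not given in the sources used here.

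Counts were fitted with edgeR 4.0.16 (TMM, filterByExpr at min.count 10 and min.total.count 15, quasi-likelihood test, all 6 libraries, 1 coefficient per medium). Benjamini-Hochberg adjustment was made over 571 miRNAs. The code was also run on simulated counts without differences between lines, which checks the code and not the results given here. Calls needed an adjusted p under 0.01 and a change over 2-fold. SE was the log2 difference divided by the square root of F. The common biological coefficient of variation was 24.6%. Each library pools 3 cultures, and each medium had 1 pool of each line. The p-values thus measure a spread in which differences between lines and between pools cannot be told apart. Alternatives were library totals, other filters, cell line as a block, DESeq2 1.42.0, limma 3.58.1 on the deposited log2 values, and leaving out each library. The same lines were used in each medium, and the RB20 minus RB18 differences correlated over 571 miRNAs at 0.21 between serum and 2i, −0.128 between serum and R2i and 0.248 between 2i and R2i. Positions came from GENCODE M21 and RefSeq (GRCm38), where 1878 of 1907 names were placed. Python 3.11.15 and matplotlib 3.10.9 served for tables and plots.

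The members, lists and tests were chosen with earlier results of these data known. Named were all members, the other arms of their hairpins, the 3 most abundant of each list, and the 3 miRNAs most like miR-484. miR-664-3p, miR-3535, miR-677-5p and miR-3068-3p fell under this rule and were not called.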

Additional observations from a re-analysis of the deposited data

Results flagged for a closer look

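Several members moved in opposite directions in the RB18 and RB20 lines, and these differences between lines were not tested, since each line had 1 library per medium. Values are differences in log2(normalized CPM + 1). In 2i minus serum, miR-877-5p gave −0.34 in RB18 and 0.67 in RB20, miR-702-3p gave −0.51 and 0.22, and miR-320-3p gave 0.04 and −0.29. In R2i minus serum, miR-877-5p gave −0.53 and 0.13, miR-484 gave −0.39 and 0.22, and miR-320-3p gave −0.01 and 0.07. In 2i minus R2i, miR-320-3p gave 0.05 and −0.36, and miR-877-3p gave 0.22 and −0.10. None of these members was called in any comparison, and neither arm of miR-1981 nor miR-1839-5p had opposite signs in the lines.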

How the results depend on the processing

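In 13 alternatives, which leave out the change of limits, miR-1981-3p was called in 2i against serum in 13 (1.90 to 2.52) and miR-1981-5p in 11 (1.71 to 2.28), and miR-6944-3p was called in 13 in 2i and in 13 in R2i. When a library was left out, 1 to 2 members were called in 2i against serum and 0 to 2 in ground state against serum. With at least 10 counts in every library, so that fewer miRNAs were tested, 128 miRNAs were called in 2i against serum, 135 in ground state against serum and 1 in 2i against R2i. In 2i against R2i, where 2 were called, no filter gave 25 and 1 member (miR-1981-3p, 1.57), DESeq2 gave 14, and leaving out a library gave 0 to 3. With cell line as a replicate block 0 were called there, miR-1981-5p and miR-1981-3p in 2i against serum gave 1.98 and 2.16, and no call of a member changed. The block together with library totals, an alternative chosen after seeing the data, gave 5 in 2i against R2i.

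Signs turned for uncalled differences, most of them near 0, whose cause was not tested. When a library was left out, 2i against serum ranged from −0.217 to 0.0294 for miR-320-3p, −0.128 to 0.570 for miR-877-5p and −0.726 to 0.466 for miR-702-3p. R2i against serum ranged from −0.0449 to 0.109 for miR-320-3p, −0.319 to 0.219 for miR-484, −0.517 to 0.175 for miR-877-5p and −0.496 to 0.142 for miR-1839-3p, and 2i against R2i from −0.0896 to 0.239 for miR-877-3p. Ground state against serum ranged from −0.0812 to 0.0391 for miR-320-3p, −0.323 to 0.373 for miR-877-5p, −1.03 to 0.162 for miR-702-3p and −0.132 to 0.407 for miR-484. Library totals gave −0.0042 for miR-877-3p in 2i against R2i and, in ground state against serum, 0.0189 for miR-320-3p and 0.0139 for miR-877-5p, where the values were −0.044 and −0.024. There miR-320-3p gave 0.0408 with at least 10 counts and 0.0134 with DESeq2, and miR-877-5p gave 0.0123 with no filter, 0.0501 with at least 10 counts, 0.0193 with DESeq2 and 0.015 with limma. The block with library totals gave 0.024 for miR-484 in R2i, −0.0372 for miR-877-3p in 2i against R2i, and 0.0185 for miR-320-3p and 0.0325 for miR-877-5p in ground state against serum. Of 584 values of single miRNAs under alternatives, 532 kept their direction and their side of the limits, 31 turned, 8 passed the limits anew and 13 no longer passed. These 584 include the change of limits, which leaves every difference as it was and so cannot turn a sign. The median over all 571 shifted by 0.0977 with library totals and by 0.104 with the block added in R2i against serum. Depth limits miR-702-3p and miR-1224-5p most.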
